A study of Mus musculus with 5 samples.

Results

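Beta cells in which insulin transcripts made up at least 75% of all captured RNA molecules were compared with the other beta cells of the same islets. Single-cell RNA was counted as unique molecular identifiers (UMIs, 1 per captured transcript). A barcode was kept if it had 1000 or more UMIs from 500 or more genes and no more than 15% of its UMIs from the mitochondrial genome, and of these the cells with Ins1 and Ins2 together at 75% or more, Gcg under 2%, Sst under 0.5% and Ppy under 1% of all UMIs were taken. This rule chose 568 of 22758 kept barcodes. A further 9 barcodes of at least 75% insulin failed the filter, all with under 500 genes, and 1 kept barcode was over a hormone limit.

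The islets were handpicked from 5 NOD.SCID mice (strain NOD.Cg-Prkdcscid/J), in which the scid mutation of Prkdc leaves the animals without mature T and B cells but with myeloid cells. Of these, 3 mice were fed chow and 2 a diet of 20% hydrolyzed casein (HC), and each mouse gave 1 library. Library names start with FUN for chow 1 (8 weeks old) and HC 1 (7 weeks), and with SKY for chow 2 and chow 3 (both 10 weeks) and HC 2 (9 weeks). HC 2 is called chow-fed in its title but HC in its diet label, which was followed. Total UMIs per library ranged from 28722244 to 39624978, and median UMIs per kept barcode from 5147 to 6958. Of the kept barcodes, 64 occurred in more than 1 library, and 7 of the 568 cells carried a barcode also seen in another library.

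Insulin is made as preproinsulin, which enters the endoplasmic reticulum (ER) through the translocon, loses its signal peptide, folds with the help of chaperones and disulfide isomerases, and is cleaved to insulin in the secretory granule by prohormone convertases and carboxypeptidase E. The mouse has a pair of insulin genes. Ins1 (ENSMUSG00000035804) lies at chr19:52264297-52265476 on the plus strand of GRCm38, and Ins2 (ENSMUSG00000000215), the counterpart of the human gene, is annotated at chr7:142678656-142743381 on the minus strand. Heavy synthesis of a single secreted protein loads the ER, and the unfolded protein response adjusts chaperone levels to that load.

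All 568 cells came from the SKY libraries. Chow 2 held 274 of them, chow 3 held 219 and HC 2 held 75, while chow 1 and HC 1 held 0. As a share of insulin-rich cells (at least 25% insulin with the same limits on the other hormones), they made up 10.1% in chow 2 (95% Clopper-Pearson interval 8.96 to 11.3%), 8.33% in chow 3 (7.30 to 9.45%) and 4.02% in HC 2 (3.18 to 5.02%). For the counts of 0 among 1843 insulin-rich cells of chow 1 and 2156 of HC 1 the same interval ends at 0.2% and 0.171%, and the limit set by 3 counts is 0.163% and 0.139%. These intervals and limits cover counting error only. The whole distribution of insulin share lay lower in the FUN mice, with medians of 61.2% in chow 1 and 61.0% in HC 1 against 68.8%, 68.9% and 67.6% in chow 2, chow 3 and HC 2. The highest cell stood at 73.6% in chow 1, 74.4% in HC 1 and 81.4% in HC 2. Library prefix and age cannot be told apart here, since the FUN mice were also the younger ones.

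**Figure D1:**
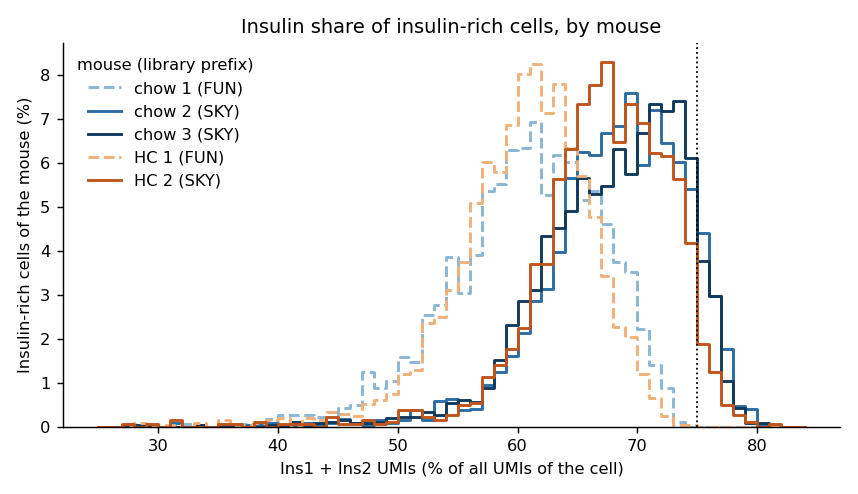
Share of insulin-rich cells (y axis, percent of the mouse's cells, bins of 1 percentage point) by Ins1 plus Ins2 share of all UMIs (x axis), 1 line per mouse, dashed for FUN and solid for SKY libraries. The dotted line marks 75%, which no cell of chow 1 or HC 1 reached, and the medians of the SKY mice lie at 67.6 to 68.9%.

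By diet, the share of insulin-rich cells was 2.01% ± 2.84 (SD, n = 2) in HC mice and 6.13% ± 5.38 (SD, n = 3) in chow mice, a difference of -4.12 percentage points (two-sided exact permutation test, p = 0.5, where the smallest possible p is 0.1). Within the SKY libraries the HC mouse stood at 4.02% and the chow mice at 9.20% ± 1.23 (SD, n = 2), so all of it rests on 1 HC mouse. Both FUN mice were at 0, on either diet. In percent of all kept barcodes the HC mean was 0.850% ± 1.20 (SD, n = 2) and the chow mean 3.32% ± 2.90 (SD, n = 3), with an exact permutation p of 0.4.

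The cells held more insulin UMIs at a similar number of other UMIs. Median insulin UMIs per cell were 7964 in chow 2, 7528 in chow 3 and 9672 in HC 2, against 5657, 4849 and 6426 in the comparison cells of the same mice, which are beta cells of 50 to under 75% insulin under the same hormone limits (10367 in all 5 mice). Median non-insulin UMIs were 2448, 2347 and 2971 against 2590, 2296 and 3098, so the classes overlapped in that measure. Insulin share itself chose the cells, so these values are a description. Across the 568 cells total UMIs ran from 3232 to 26285 with a median of 10392, insulin share from 75 to 81.4% with a median of 76.2%, and 132 cells reached 77%. No doublet caller was run, and the part of doublets in these totals was not tested. On either side of the threshold, the 254 cells from 75 to under 76% had a median of 10134 UMIs with Ins1 at 31.7% of insulin UMIs, and the 387 cells from 74 to under 75% had 9817 UMIs with Ins1 at 31.0%.

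Ins1 took a larger part of the insulin RNA. The rule used the UMIs of both genes, so the difference between the classes is a description with no test. Of the summed insulin UMIs, Ins1 was 32.4% in chow 2, 32.1% in chow 3 and 32.7% in HC 2, against 28.03%, 28.4% and 28.6% in the comparison cells. The ranges do not overlap, and the mean difference was 4.02 percentage points ± 0.369 (SD over 3 mice), higher in 3 of 3 mice. The difference was 2.71 points ± 0.851 (SD, n = 3) when the comparison cells were matched on total UMIs in each mouse. In the 10% of insulin-rich cells with the highest insulin share of each mouse, a definition chosen after seeing the data that also takes in the FUN mice (above 68.4% in chow 1 and 67.0% in HC 1), the difference was 3.46 points ± 0.586 (SD, n = 5) and positive in 5 of 5 mice. Ins1 in the cells of HC 2 was 0.430 points above the chow mean of 32.2% ± 0.226 (SD, n = 2). This rests on 1 HC mouse and is given without a test.

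**Figure D2:**
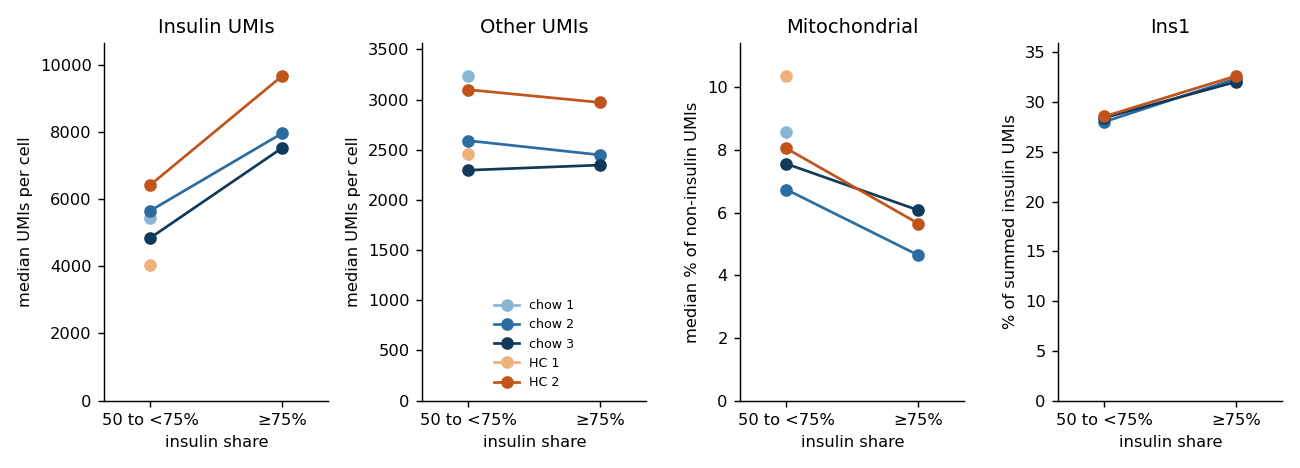
Medians per cell of insulin UMIs, non-insulin UMIs and mitochondrial UMIs (percent of non-insulin UMIs), and Ins1 in percent of summed insulin UMIs, for comparison cells (left of each panel) and cells of at least 75% insulin (right), 1 colour per mouse. Chow 1 and HC 1 have comparison cells only. Insulin UMIs rise to the right in all 3 SKY mice while non-insulin UMIs stay between 2296 and 3098.

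The label was checked against markers. Iapp, which encodes the amylin peptide stored with insulin, stood at 96859, 87073 and 101893 UMIs per 1000000 non-insulin UMIs in chow 2, chow 3 and HC 2, against 95310, 83945 and 93730 in the comparison cells (log2 fold change 0.07, SE 0.03, adjusted p = 0.10). Of 11 alpha markers 7 were detected in the 568 cells and 4 were at 0, among them the factors Irx1, Irx2 and Pou3f4. Of 9 delta markers 7 were detected, and Hhex and Ghsr were at 0. These lists include Gcg and Sst, whose levels the rule limited. Ductal markers were detected in 8 of 10. Among 12 endothelial markers 8 were at 0, including Pecam1, Cdh5 and Kdr. Of 14 macrophage and leukocyte markers 5 were at 0, including Ptprc, Csf1r and Adgre1.

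To ask how the rest of the transcriptome differed, UMIs were summed per mouse and class with Ins1 and Ins2 left out, and tested with edgeR's quasi-likelihood test with the mouse as a block in the 3 mice that have such cells. Levels below are UMIs per 1000000 non-insulin UMIs (CPM), log2 fold changes are cells of at least 75% insulin over comparison cells, and p-values are Benjamini-Hochberg adjusted over all genes tested. Since insulin share has every other UMI in its denominator, droplets with much RNA of another kind were less likely to be chosen. Of 10918 genes, 404 were higher (3.7%) and 289 lower (2.65%) at an adjusted p under 0.05, together 6.35%. Of the genes called lower, 58 passed the filter on low counts through the comparison cells only (under 3.09 CPM in the cells of at least 1 mouse), and for those named below UMIs and levels are given without a fold change or p. DESeq2 put 192 higher (1.76%) and 73 lower (0.669%). Without chow 2 the total fell from 693 to 194 genes and without chow 3 to 453, and with comparison cells matched on total UMIs it was 241 of 7089 genes tested. The 3 values of the cells lay beyond the 3 of the comparison cells for 22.4% of all genes tested.

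Genes for folding and processing proinsulin were higher nearly throughout. Of 10 tested prohormone processing genes 9 were higher and none was lower, with a median log2 fold change of 0.48 against -0.01 over all genes. Cpe, which trims basic residues after cleavage, was at 2448, 2475 and 2498 CPM in chow 2, chow 3 and HC 2 and at 1504, 1631 and 1480 in the comparison cells. Its log2 fold change was 0.69 (SE 0.04, adjusted p = 2.8e-18), and all 3 cell values lay above all comparison values. Pcsk1, the convertase PC1/3, measured 466, 521 and 634 CPM against 288, 397 and 394 (log2 0.59, SE 0.07, adjusted p = 4.6e-09), again without overlap. Pcsk2, the convertase PC2, measured 2719, 3046 and 2903 CPM against 2099, 2374 and 2151 (log2 0.39, SE 0.04, adjusted p = 2.9e-11). Scg5, the chaperone 7B2 that PC2 needs, rose by 0.51 (SE 0.03, adjusted p = 5.2e-16), and Ero1lb, an ER oxidase that supports disulfide formation in proinsulin, by 0.46 (SE 0.04, adjusted p = 2.1e-11).

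Of 29 tested genes of the unfolded protein response and ER folding, 19 rose and none fell (median log2 0.34); Pdia6 is on both this list and the processing list. For all its genes the list's summed level was 15527, 15346 and 16114 CPM in chow 2, chow 3 and HC 2 against 11253, 11776 and 12506. Sdf2l1, an ER chaperone cofactor, was at 832, 755 and 979 CPM against 450, 499 and 564, the largest of the 4 changes with the smallest p in this list (log2 0.78, SE 0.06, adjusted p = 9.1e-15). Pdia6, a disulfide isomerase, was at 1293, 1551 and 1488 CPM against 825, 976 and 970 (log2 0.66, SE 0.04, adjusted p = 6.1e-16). For both genes every cell value exceeded every comparison value. Manf, a secreted ER stress factor, rose by 0.58 (SE 0.04, adjusted p = 2.0e-14) and Dnajb9, a J-domain cofactor of BiP, by 0.64 (SE 0.06, adjusted p = 2.3e-11). Hspa5, which encodes BiP itself, was at 1887, 1735 and 2015 CPM against 1448, 1373 and 1574 (log2 0.37, SE 0.04, adjusted p = 2.5e-09). The count of 19 was 11 without the mouse block and 10 with comparison cells matched on total UMIs, with none lower in either.

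Many promoters of this list carry the ER stress response element, to which ATF6 binds together with NF-Y, and 4 are shown because these genes rose together. The motif searched was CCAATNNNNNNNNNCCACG on both strands of the 250 bases before the start in RefSeq's promoter table (GRCm38.p6). It occurred in 9 of the 25 list members with a promoter in that table (36.0%), against 35 of all 27025 genes (0.130%) and 13 of the 8577 tested genes with a promoter (0.152%). Among list members called higher it was in 7 of 16, and among those not called in 2 of 9. The 4 called genes with the motif and the smallest p are printed 5′ to 3′ on the strand of the gene, with the motif in capitals.

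Pdia6, chr12:17266339-17266588, plus strand: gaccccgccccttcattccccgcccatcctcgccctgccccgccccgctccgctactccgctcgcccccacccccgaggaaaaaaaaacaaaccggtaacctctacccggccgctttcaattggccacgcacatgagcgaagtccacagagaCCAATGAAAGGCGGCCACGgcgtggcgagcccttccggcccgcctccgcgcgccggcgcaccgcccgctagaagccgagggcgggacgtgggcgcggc
Dnajc3, chr14:118937682-118937931, plus strand: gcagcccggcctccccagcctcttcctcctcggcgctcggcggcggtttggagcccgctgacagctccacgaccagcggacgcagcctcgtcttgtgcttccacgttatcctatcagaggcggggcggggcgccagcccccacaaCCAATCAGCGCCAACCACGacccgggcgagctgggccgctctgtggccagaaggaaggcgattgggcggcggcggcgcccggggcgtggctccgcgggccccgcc
Hspa5, chr2:34771840-34772089, plus strand: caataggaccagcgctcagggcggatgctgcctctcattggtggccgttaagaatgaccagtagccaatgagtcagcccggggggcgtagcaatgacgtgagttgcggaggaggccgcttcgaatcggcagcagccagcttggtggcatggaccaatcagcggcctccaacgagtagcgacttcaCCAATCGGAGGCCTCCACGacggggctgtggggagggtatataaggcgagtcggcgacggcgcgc
Calr, chr8:84846932-84847181, minus strand: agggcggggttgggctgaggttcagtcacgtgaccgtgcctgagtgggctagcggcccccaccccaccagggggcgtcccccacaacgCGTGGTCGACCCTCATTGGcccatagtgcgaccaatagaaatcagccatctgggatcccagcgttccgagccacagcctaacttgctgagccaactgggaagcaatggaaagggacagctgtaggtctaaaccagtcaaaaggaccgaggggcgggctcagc

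Calr carries it on the opposite strand, so it reads as its reverse complement. Dnajc3, a BiP cofactor that also restrains the kinase PERK, rose by 0.54 (SE 0.05, adjusted p = 8.4e-11), and Calr, the lectin chaperone calreticulin, by 0.36 (SE 0.05, adjusted p = 1.3e-07). A match is a description of these letters only.

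Of 24 genes for translocation into the ER 11 were higher and none lower (median log2 0.26), summing to 13795, 12616 and 13072 CPM against 10588, 10433 and 10882. Ssr4, a subunit of the translocon-associated complex, was at 2605, 2214 and 2429 CPM against 1683, 1604 and 1682 (log2 0.56, SE 0.04, adjusted p = 6.9e-15). Its partner Ssr2 rose by 0.51 (SE 0.06, adjusted p = 3.9e-09). Of the signal peptidase, Spcs1 rose by 0.55 (SE 0.06, adjusted p = 1.3e-09) and the catalytic subunit Sec11c by 0.53 (SE 0.06, adjusted p = 1.6e-09). Without chow 2 the count was 7, and it was 6 with comparison cells matched on total UMIs.

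Granule cargo rose less evenly. Of 20 granin and granule genes 8 were higher and 2 lower (median log2 0.17), and this list shares Pcsk1, Pcsk2 and Cpe with the processing list. Chga, the granin chromogranin A, was at 13794, 12447 and 12032 CPM against 11223, 10359 and 9267 (log2 0.32, SE 0.03, adjusted p = 4.2e-11). Chgb, chromogranin B, was at 1941, 2182 and 1765 CPM against 1436, 1664 and 1288 (log2 0.43, SE 0.04, adjusted p = 2.3e-11), and Scg3, a granin-binding sorting protein, rose by 0.45 (SE 0.04, adjusted p = 3.8e-12). All 3 Chgb values of the cells lay above those of the comparison cells. Cd63, a tetraspanin of lysosomes and late endosomes, fell by 0.41 (SE 0.04, adjusted p = 1.3e-09); it is named here after its value was seen. Of 18 genes for exocytosis 2 were higher and 1 lower, with a median of -0.05. Rab3a, a granule GTPase, rose by 0.37 (SE 0.08, adjusted p = 0.0020) and Syt4 by 0.46 (SE 0.10, adjusted p = 0.0026), and Syt4 was at 186 CPM in HC 2 against 202 in its comparison cells and lost its call in 8 alternatives, DESeq2 among them (adjusted p = 0.089).

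**Figure D3:**
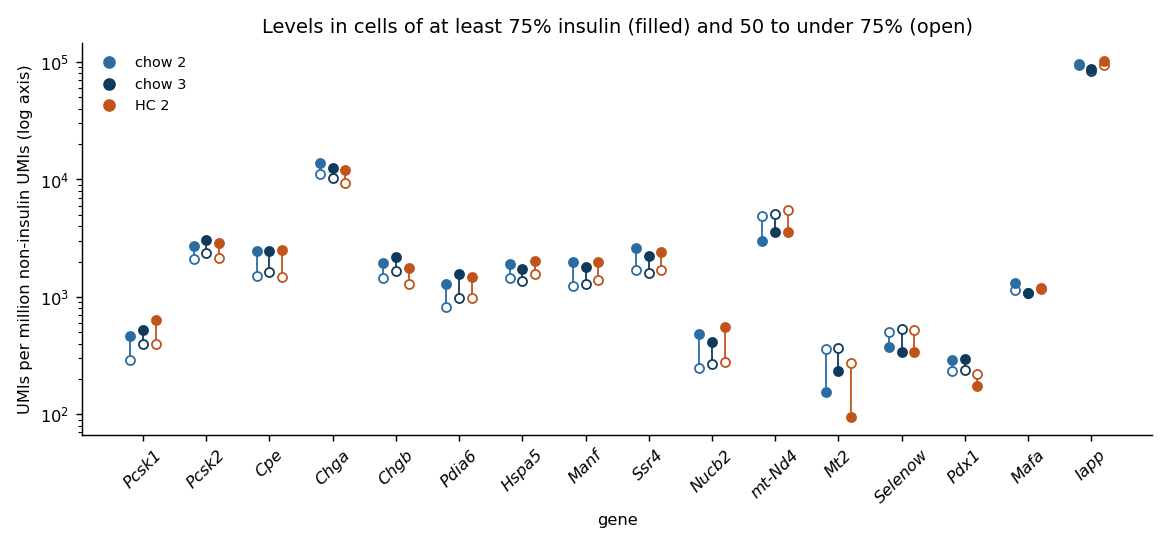
Levels of 16 genes (y axis, UMIs per 1000000 non-insulin UMIs, log axis) in cells of at least 75% insulin (filled) and in comparison cells (open) of chow 2, chow 3 and HC 2, joined within each mouse. Cpe lies at 2448 to 2498 filled and 1480 to 1631 open, mt-Nd4 at 3015 to 3550 filled and 4917 to 5459 open.

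Beta cell identity genes moved little. Of 20 identity factors none was higher and 1 was lower (median log2 -0.08). Pdx1, the master regulator of the pancreas and insulin transcription, was at 286.8, 297.1 and 172.6 CPM against 233.0, 236.2 and 220.2, higher in both chow mice and lower in HC 2 (log2 0.22, SE 0.09, adjusted p = 0.14); without HC 2 its log2 was 0.33 with an adjusted p of 0.011. Mafa, an insulin gene activator, differed by 0.09 (SE 0.05, adjusted p = 0.31) and Nkx6-1 by -0.01 (SE 0.06, adjusted p = 0.94). In the highest 10% of insulin share of all 5 mice, Pdx1 passed at a log2 of 0.20 (edgeR adjusted p = 0.0084). Mafa also passed there at 0.11 (adjusted p = 0.0098), and Nkx6-1 did not, at -0.02 (adjusted p = 0.85). Mlxipl, the glucose-responsive factor ChREBP, was the factor that fell, by 0.54 (SE 0.10, adjusted p = 2.5e-04), and its adjusted p was 0.40 with comparison cells matched on total UMIs. Among 19 genes of maturity and glucose sensing 2 were higher and none lower: Prlr, the prolactin receptor, by 0.35 (SE 0.05, adjusted p = 3.7e-07) and G6pc2, a glucose-6-phosphatase of the islet, by 0.35 (SE 0.05, adjusted p = 3.8e-07). The values for Ucn3, a peptide of mature beta cells, and Slc2a2, the glucose transporter GLUT2, were -0.09 (SE 0.06, adjusted p = 0.49) and 0.11 (SE 0.05, adjusted p = 0.22). Malat1, a nuclear RNA, was at 0.01 (SE 0.03, adjusted p = 0.91). The sign of Malat1, Nkx6-1 and Mafa flipped under some alternatives.

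Transcripts of the mitochondrial genome fell together. All 13 tested were lower (median log2 -0.55), summing to 46289, 61383 and 55986 CPM against 67495, 80820 and 81264, with each mouse below its own comparison cells. The fall was 0.58 for mt-Atp6 (SE 0.03, adjusted p = 2.1e-19), 0.56 for mt-Co2 (SE 0.03, adjusted p = 9.3e-18), 0.61 for mt-Nd4 (SE 0.04, adjusted p = 1.3e-17) and 0.65 for mt-Nd2 (SE 0.04, adjusted p = 1.2e-16). Mitochondrial UMIs are part of the denominator of the insulin share and of the barcode filter. Against cells of 65 to under 75% insulin, where 1.04% of all genes were lower, the count was 12, with a median of -0.38. Of 80 nuclear genes of the respiratory chain 4 were higher and none lower, with a median of 0.03. Among them Ndufa1, a complex I subunit, rose by a log2 value of 0.40 (SE 0.07, adjusted p = 3.2e-05).

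Cytosolic ribosomal protein genes were lower by small amounts. Of 80 tested 39 were lower and 2 higher, with a median log2 of -0.14. Rpl5 fell by 0.40 (SE 0.05, adjusted p = 2.4e-07), Rpl23 by 0.25 (SE 0.04, adjusted p = 5.0e-05), Rps28 by 0.28 (SE 0.05, adjusted p = 1.3e-04) and Rps3a1 by 0.22 (SE 0.04, adjusted p = 6.7e-05). Only 1 was lower without the mouse block, 19 with comparison cells matched on total UMIs and 5 against cells of 65 to under 75% insulin. The many processed pseudogenes of this family make single members uncertain.

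Some stress genes of the amino acid response were lower. Of 26 tested none was higher and 5 were lower (median log2 -0.24); without chow 3 the count was 3 and in DESeq2 it was 2. Nupr1, a stress-induced nuclear protein, had 4, 2 and 0 UMIs in the cells of chow 2, chow 3 and HC 2, or 5.68, 3.83 and 0 CPM, against 29.4, 35.4 and 54.8 CPM, and it is the 1 gene of the 5 that passed the filter through the comparison cells only. These Nupr1 values are a description, since the gene entered the test through the comparison cells. Atf5, a transcription factor of this response, was at 149, 142 and 121 CPM against 210, 250 and 289 (log2 -0.74, SE 0.10, adjusted p = 9.7e-07). Vldlr, a lipoprotein receptor induced by ATF4, had 5, 4 and 2 UMIs in the cells of chow 2, chow 3 and HC 2. Its levels were 7.10, 7.67 and 8.63 CPM against 32.6, 42.0 and 47.7 (log2 -2.33, SE 0.33, adjusted p = 1.0e-06), and it lost its call in at least 1 alternative. Sars, the seryl-tRNA synthetase, fell by 0.37 (SE 0.09, adjusted p = 0.0056).

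Of 26 antioxidant and redox genes 4 were higher and 3 lower. Mt2, a metallothionein that binds zinc and copper, was at 155, 232 and 94.9 CPM against 362, 367 and 271, without overlap (log2 -1.01, SE 0.10, adjusted p = 6.5e-11). Selenow, a small selenoprotein, fell by 0.54 (SE 0.07, adjusted p = 8.5e-08). Of 27 immediate-early and heat shock genes 5 were higher and none lower, with Jun at 0.28 (SE 0.06, adjusted p = 6.4e-04) and Dnaja1 at 0.29 (SE 0.06, adjusted p = 7.1e-04). No gene of this list passed without the mouse block or with comparison cells matched on total UMIs.

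**Figure D4:**
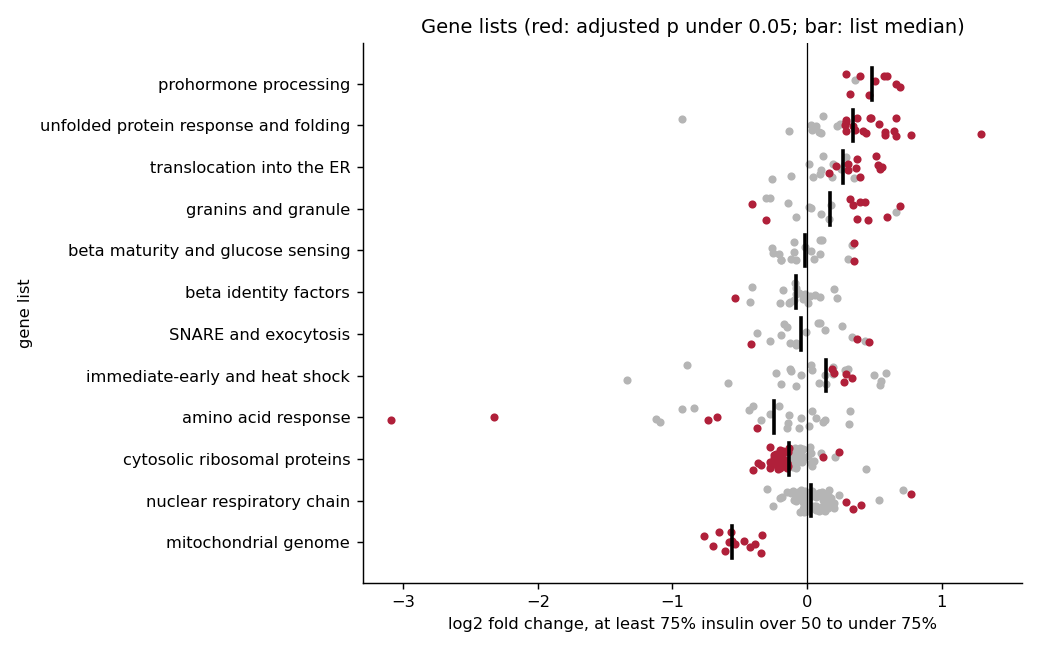
Log2 fold change (x axis) of each tested gene in 12 lists (y axis), cells of at least 75% insulin over comparison cells in 3 mice, red where the adjusted p is under 0.05, with a bar at the list median. Medians run from 0.48 for prohormone processing to -0.55 for the mitochondrial genome.

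The 10 largest increases among called genes of at least moderate level (mean log2 CPM of 5 or more, same direction in every mouse) lay outside these lists. Arhgap36, which restrains protein kinase A, was at 72.4, 65.2 and 104 CPM against 35.3, 26.98 and 35.2 (log2 1.24, SE 0.17, adjusted p = 8.8e-07). Fmo1, a flavin-containing monooxygenase, was at 90.9, 218 and 43.1 CPM against 42.2, 84.5 and 35.4 (log2 1.19, SE 0.14, adjusted p = 7.3e-09), rising in each mouse although the classes overlapped across mice. The Fmo1 level in the cells of HC 2 rests on 10 UMIs. Tm4sf4, a membrane protein of the tetraspanin-like family, was at 1627, 1599 and 1126 CPM against 835, 898 and 569 (log2 0.93, SE 0.05, adjusted p = 3.0e-20), with no overlap. Nucb2, the precursor of nesfatin-1, was at 478, 412 and 557 CPM against 248, 269 and 276 (log2 0.86, SE 0.07, adjusted p = 1.2e-12), also with no overlap. The others were Adam32 at 1.121, Dapl1 at 0.97, Serpini1 (neuroserpin) at 0.90, Cryba2 (a crystallin) at 0.86, Bckdhb (of branched-chain keto acid breakdown) at 0.84 and C2cd4a at 0.82. Against cells of 65 to under 75% insulin Cryba2 had an adjusted p of 0.054, and C2cd4a had one of 0.66 without chow 2. Bckdhb lost its call in 6 alternatives, including each chow mouse left out in turn. Arhgap36, Fmo1, Adam32, Dapl1, Tm4sf4 and Serpini1 also lost their call in at least 1 alternative each. Their highest adjusted p over the edgeR and DESeq2 alternatives ran from 0.084 for Serpini1 to 0.60 for Dapl1. Nucb2 kept its call in every alternative.

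Among the 10 largest decreases, chosen in the same way, were Nupr1 and Vldlr, and Sparc, Cd74, Try5 and Prss2 from marker lists of other cell types. Mgp, a matrix protein, had 3, 0 and 1 UMIs in the cells of chow 2, chow 3 and HC 2 (4.26, 0 and 4.31 CPM) against 17.8, 20.2 and 76.6 CPM. In the comparison cells of HC 2, 5 cells held 83.5% of the Mgp UMIs. Cd74, the MHC class II invariant chain, had 1, 10 and 1 UMIs (1.42, 19.2 and 4.31 CPM) against 27.6, 65.4 and 57.0 CPM, and 5 cells held 68.2 to 85.6% of its UMIs in the comparison cells of each mouse. Against cells of 65 to under 75% insulin neither Cd74 nor Apoe passed (adjusted p = 0.52 for Apoe). Sparc, of the matrix, had 4, 2 and 0 UMIs (5.68, 3.83 and 0 CPM) against 27.9, 42.2 and 40.1 CPM. The log2 fold change was -1.72 for the lipoprotein Apoe, -2.29 and -1.49 for the trypsins Try5 and Prss2, and -1.52 for the tetraspanin Cd81. In the comparison cells of chow 2, chow 3 and HC 2, 5 cells held 49.7, 59.9 and 72.5% of the Apoe UMIs. The same shares were 61.0, 72.3 and 20.9% for Try5, 46.4, 66.1 and 21.5% for Prss2, and at most 12.1% for Cd81. Apoe was detected in a larger share of the cells than of comparison cells in chow 2 and chow 3, but not in HC 2. Without chow 3 the adjusted p was 0.14 for Try5 and 0.23 for Prss2. Ank2, a membrane skeleton adaptor, had 11, 8 and 2 UMIs in the cells of chow 2, chow 3 and HC 2. Its levels were 15.6, 15.3 and 8.63 CPM against 44.3, 43.2 and 45.8 (log2 -1.60, SE 0.27, adjusted p = 3.1e-05). For Ank2 the 5 highest comparison cells of each mouse held at most 4.94%.

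Marker lists of other cell types differed in both directions. Endothelial markers summed to 5.68, 19.2 and 12.9 CPM against 63.1, 81.3 and 73.5, with 9 to 11 of the 12 genes at 0 in the cells of a mouse. Macrophage and leukocyte markers summed to 36.9, 90.1 and 69.0 CPM against 131, 214 and 181, and stromal markers to 7.10, 9.59 and 0 CPM against 44.3, 94.96 and 111. No count of lower genes is given for these 3 lists, since all 7 endothelial and 3 stromal genes tested and 8 of the 9 macrophage and leukocyte genes passed the filter through the comparison cells only. Acinar markers summed to 175, 69.0 and 315 CPM against 295, 390 and 294, so HC 2 was not below its own comparison cells. Of 15 MHC and immunoproteasome genes 5 were lower and 1 higher, but 1 was lower without the mouse block and none in DESeq2, and 3 of the 5 (Cd74, H2-Ab1 and H2-Aa) passed the filter through the comparison cells only. B2m, the class I light chain, was at 35.5, 32.6 and 60.4 CPM against 75.1, 79.6 and 93.8 (log2 -1.04, SE 0.17, adjusted p = 3.5e-05). The class I heavy chain H2-D1 went the other way, at 368, 330 and 293 CPM against 280, 273 and 295 (log2 0.29, SE 0.08, adjusted p = 0.013). It was higher in both chow mice but not in HC 2, and it is named here after its value was seen. The part of these cell types in the other decreases was not tested. Ductal markers were above the comparison cells in all 3 mice, at 1265, 1183 and 1199 CPM against 1114, 1058 and 1024. Of 6 tested 2 were higher, Krt18 and Krt8, and none lower. None was higher without the mouse block or without chow 2, and in the highest 10% of the FUN mice none was higher and 1 lower. Sox9 and Cftr of this list were at 0 in all the cells. Delta markers, at 393, 360 and 470 CPM against 545, 422 and 404, and Schwann markers, at 15.6, 28.8 and 17.3 CPM against 23.1, 23.1 and 20.6, had no common order. PP markers summed to 846, 500 and 259 CPM against 879, 559 and 274. The alpha, delta and PP lists include Gcg, Sst and Ppy, which the rule limited, and the sums and counts include them. In the cells of chow 2 these 3 genes stood at 1043, 209 and 443 CPM. Alpha markers summed to 5020, 4725 and 4970 CPM against 4396, 4318 and 4199, and of 7 tested 1 was higher: Ttr, transthyretin, at 2521, 2214 and 2433 CPM against 1766, 1681 and 1540 (log2 0.52, SE 0.04, adjusted p = 1.4e-13). Peg3 of the same list was at -0.13 (SE 0.04, adjusted p = 0.064).

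The 75% rule chose no cell in the FUN mice, so a class defined after seeing the data was used there. It was again cut on insulin share, which has every other UMI in its denominator. Agreement between the 2 sets of mice is therefore not independent of the rule. In the FUN mice the highest 10% of insulin-rich cells by insulin share were set against the cells from 50% insulin up to that share. With 2 mice, 1 on each diet, and the mouse as a block, this fit left 1 residual degree of freedom. Its p-values therefore rest mainly on the spread that edgeR shares across genes, and little on the spread between mice. Of 10948 genes 468 passed (4.27%), 292 higher (2.67%) and 176 lower (1.61%). Of 668 genes called in the SKY mice and tested in the FUN mice, 639 had the same sign (95.7%) and 307 also passed in that direction, against 65% with the same sign over all 10700 genes tested in both. The 307 genes are 44.3% of the 693 called in the SKY mice and 65.6% of the 468. Prohormone processing genes were higher in 9 of 10, ER translocation genes in 13 of 24 and folding genes in 17 of 29, with 1 folding gene lower, and the mitochondrial genome was lower in 12 of 13. For Cpe the log2 fold change was 0.70 (SE 0.05, adjusted p = 1.8e-19) and for Pdia6 0.57 (SE 0.06, adjusted p = 1.1e-12), and Nupr1 was at 5.92 and 16.2 CPM in chow 1 and HC 1 against 36.6 and 88.8. Among the 20 largest changes, Bckdhb, C2cd4a, Mgp, Try5, Prss2 and Cd81 did not pass in the FUN mice. Mt2 was at -0.84 there with an adjusted p of 0.76, at levels that went from 244 to 66.6 CPM in chow 1 and from 246 to 220 in HC 1.

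**Figure D5:**
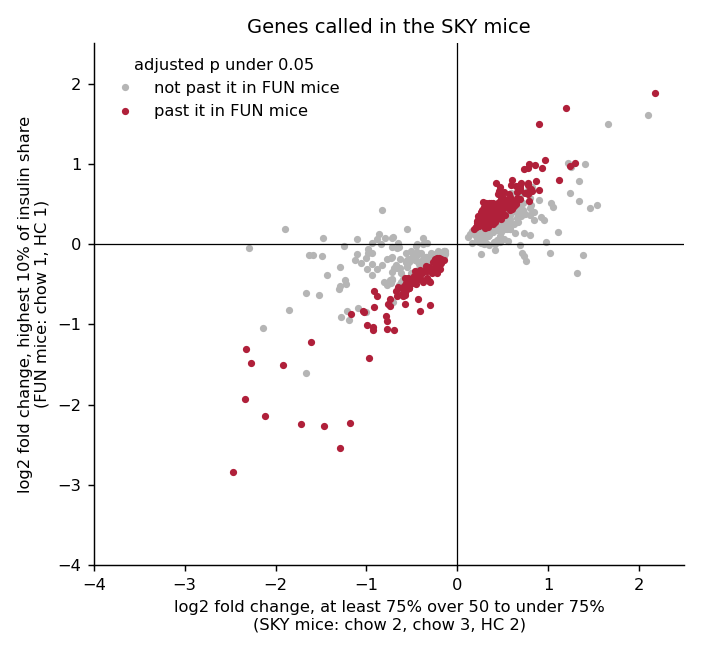
Log2 fold changes of genes called in the SKY mice, for at least 75% over 50 to under 75% insulin in those 3 mice (x axis) and for the highest 10% of insulin share in the 2 FUN mice (y axis), red where the adjusted p is also under 0.05 in the FUN mice. Shown are the 641 of 668 genes with a UMI in both classes of all 5 mice, of which 613 have the same sign.

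Because 1 cell's UMIs set both its insulin share and its other values, cells were also chosen on a random 50% of their UMIs and measured on the other 50%. Then 194 genes were higher (1.99%) and 149 lower (1.53%) of 9745, with processing genes higher in 8 of 10, folding genes in 13, translocation genes in 9 and mitochondrial genes lower in 12. Of the 667 genes called before and tested here, 667 had the same sign. The measured UMIs were part of those behind the first calls, so this agreement was partly fixed in advance. The barcode filter and hormone limits still used all UMIs, and insulin share still had every other RNA in its denominator. The number of genes detected at equal depth depended on whether insulin UMIs were counted. In 1000 UMIs of all kinds drawn per cell the median was 191, 194 and 188 genes in chow 2, chow 3 and HC 2 against 246, 246 and 247. In 500 non-insulin UMIs drawn per cell the median was 370, 371 and 364 genes against 363, 364 and 360, higher in 3 of 3 mice with a mean difference of 6 genes (two-sided exact sign permutation, p = 0.25, the smallest possible), and no cell was too shallow to be drawn. Without thinning the medians were 1351, 1293 and 1533 genes against 1373, 1256 and 1553, in no common order.

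Diet could be compared in these cells only between HC 2 and the chow mice 2 and 3, with the lone HC mouse assumed to vary like the chow mice. Of 7343 genes 2 were higher and 2 lower (0.0545%), 0.0272% in each direction. Before adjustment 332 genes had a p under 0.05. DESeq2 passed none, and 11 genes had a p under 0.05 in it before adjustment. Enpp2, which encodes the secreted lysophospholipase autotaxin, was at 69.0 CPM in HC 2 against 194 and 353 in chow 2 and chow 3 (log2 -1.92, SE 0.33, adjusted p = 1.1e-04). Comparison cells showed the same order, 49.1 in HC 2 against 127 and 223, but the FUN mice the opposite one, 189 in HC 1 against 82.3 in chow 1. Tmsb15b2, a thymosin, was at 582 CPM against 282 and 318 (log2 1.00, SE 0.19, adjusted p = 2.3e-04) and lost its call with an equal number of cells per mouse (adjusted p = 0.48). Ppy was the other gene called lower, but the rule limited its level, so its values are a description. It was at 142 CPM against 443 and 305 in these cells and at 154 against 382 and 297 in comparison cells. The genes with the next smallest p did not pass: Mt1 and Vps26c at 0.087, Hspa1b at 0.15, Gpx2 at 0.23, Ate1 at 0.25, Vcpip1 at 0.43 and Vps11 at 0.72 (adjusted p). With the highest 10% of all 5 mice none passed, and 321 genes had an unadjusted p under 0.05.

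Npy, the gene of neuropeptide Y (chr6:49822710-49829507, plus strand, GRCm38), was the 1 gene that passed the test of the class difference between diets. It was at 1137 and 1164 CPM in the cells of chow 2 and chow 3 and at 1920 in HC 2 (log2 0.78, SE 0.14, adjusted p = 1.3e-04), where the HC group is 1 mouse and DESeq2 did not pass it, while the comparison cells had 442, 491 and 397. In the highest 10% of each mouse the diet call was lost: Npy was at 1215 CPM in HC 2 against 1142 and 1161 in chow 2 and chow 3, and over all 5 mice the diet difference turned to -0.52 (adjusted p = 1), or -0.57 with library prefix as a term (adjusted p = 0.9997). The ratio of the classes at 75% was 2.57 and 2.37 in the chow mice and 4.83 in HC 2. The interaction of class and diet gave a log2 difference of 0.94 (SE 0.11, adjusted p = 9.2e-08), 1 of 11941 genes tested (0.00837%), and it also rests on 1 HC mouse. In HC 2, 5 of the 75 cells held 52.6% of the 445 Npy UMIs, against 15.2% of 801 in chow 2 and 26.5% of 607 in chow 3. As a difference between classes alone Npy was at 1.58 (SE 0.29) with an adjusted p of 0.19. In the FUN mice it was at 1.25 (SE 0.07, adjusted p = 1.8e-23), in the fit with 1 residual degree of freedom. Its levels there were 1022 against 464 CPM in chow 1 and 307 against 108 in HC 1. Ate1, Nemf, Vps26c and Vcpip1 had the next smallest p in the interaction, with adjusted p from 0.85 to 0.97.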

How the data were processed

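The authors deposited 1 table of raw UMI counts per mouse, genes by barcodes, made with Cell Ranger 4.0.0 against mm10, per the submitters' processing notes; 10x Genomics libraries are named in the labels. Doublet removal, ambient RNA correction and the gene annotation are not given in the sources used here, and no doublet caller was run. Of 32285 genes 32158 matched a symbol. The members and gene lists were chosen with earlier results of these data known.

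Counts were summed per mouse and class and tested with edgeR 4.0.16 (TMM, filterByExpr, robust quasi-likelihood; R 4.3.3), with Ins1 and Ins2 left out, and with DESeq2 1.42.0 as an alternative. Sums with under 20 cells were not used. All 5 mice were meant to enter the fits; chow 1 and HC 1 have no such cells, so 3 mice entered. The mouse pairs the classes, since both come from the same animal. Each mouse is 1 animal and 1 library; over the cells of at least 75% insulin the counts of the 3 mice differed by 1.27 to 1.61 chi-square units per degree of freedom, so no library was counted as a repeat.

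Genes named are the 10 largest changes per direction (adjusted p under 0.05, mean log2 CPM of at least 5, same sign in every mouse), 2 to 4 genes of smallest p in each list described, a fixed set of hormone, processing, identity and maturity genes, and in the diet tests the 5 smallest p. A gene that this rule names is not reported here. Exact permutation tests were two-sided (Python 3.11.15, numpy 2.4.6). Alternatives covered the filter, the test, the thresholds, depth, cell numbers and left-out mice. On simulated counts with the real library sizes the class test recovered 42.3% of genes changed 2-fold and 84.9% of those changed 4-fold. It made 3 false calls among 10862 genes. The diet test recovered 12.6% and 62.9% with 4 false calls among 7343. These rates describe the simulated counts only, and how far they hold for the real counts was not tested. Promoters are from RefSeq (GRCm38.p6), gene positions from GENCODE M21 on GRCm38.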

Additional observations from a re-analysis of the deposited data

Results flagged for a closer look

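Npy passed a test of the difference between diets in the size of the class difference: its rise in cells of at least 75% insulin over comparison cells was larger in HC 2 than in chow 2 and chow 3, by 0.94 on the log2 scale (edgeR adjusted p = 9.2e-08, over alternatives 5.9e-13 to 0.050). It rests on 1 HC mouse. With the highest 10% of insulin share in each of the 5 mice the ratios were 2.20, 2.58 and 2.43 in the chow mice and 2.83 and 3.24 in the HC mice, and the difference was 0.36 (adjusted p = 0.050).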

How the results depend on the processing

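Against 693 genes differing between classes, the total was 241 with no replicate block (the mouse left out as a term), 265 in DESeq2, 447 against cells of 25 to under 50% insulin, 241 and 261 with classes matched on total and on non-insulin UMIs, 146 with equal cells per sum, and 194 to 634 leaving out 1 mouse. Alternatives added after seeing the data gave 316 against cells of 65 to under 75%, 128 for members of at least 77% (chow 2 and chow 3 only), 1489 for the highest 10% in all 5 mice and 343 with cells chosen on a random 50% of UMIs. Fewer cells, mice or genes enter most of these by construction. The diet count of 4 was 0 in DESeq2, 0 for the highest 10% and 1 with library prefix as a term; the interaction count of 1 was 3 for the highest 10%, and the cause was not tested. For named genes called between classes, 1054 of 1162 alternative values kept direction and call, 106 lost the call and 2 changed sign: Jun at -0.30 against cells of 25 to under 50% and Bckdhb at -0.18 with equal cells.

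Uncalled genes changed sign as follows. Against cells of 25 to under 50% insulin, Nkx6-1 was at 0.76, Ucn3 at 0.70, Malat1 at -0.34 and Peg3 at 0.31. Nkx6-1 was at 0.0048 without the block, 0.043 and 0.026 with total and non-insulin UMIs matched, 0.025 with equal cells and 0.030 for the highest 10% in SKY mice. Malat1 was at -0.038 with no filter, -0.0085 to 0.015 leaving out 1 mouse (-0.0074 without chow 2), -0.0072 and -0.024 with total and non-insulin UMIs matched, -0.021 with equal cells and -0.0069 with split UMIs. Mafa was at -0.012 without chow 2. For members of at least 77%, Iapp was at -0.016, Slc2a2 at -0.14 and Malat1 at -0.13. The diet difference of Npy was -0.52 for the highest 10% and -0.57 with prefix as a term, where Mt1 was at 0.12.

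The sign of the difference in member share, Ins1 share and genes detected in 500 non-insulin UMIs was the same in every alternative run, with leave-one-out ranges of -7.19 to -2.11 points, 3.85 to 4.22 points and 5.50 to 7.00 genes. A threshold of 80% was not run for gene tests or detected genes, since it leaves 4 cells. In the cells of at least 75% insulin, prefix does not vary, age is aliased with diet, the title leaves no HC mouse, and leaving out a mouse leaves no residual degrees of freedom in the diet tests, so none of these could be fitted.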
